A study of Homo sapiens with 32 samples.

Results

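The longest incubation with 4-thiouracil, 30 min, was set against the shortest, 5 min, in HEK293, an established line grown from human embryonic kidney. The comparison took 16 of the 32 libraries of the series, all those whose time was 5 or 30 min, and summed the 4 libraries of each biological replicate. This gave 2 cultures against 2, called culture 1 and culture 2 at each time. The study also holds 2 cultures at 0 min and 2 at 15 min, which entered the same fit and are given here as points before and between. Per the labels, cDNA was prepared 2 times from each culture and each preparation gave 2 libraries. All cells were HEK293 and the RNA counted is named as polyadenylated. The growth protocol cites a published transient transcriptome method and the extraction protocol a published single-cell method of tagged reverse transcription. The labels used here do not give the dose of the nucleobase, whether RNA carrying the tag was purified, or what cells at 0 min were given. Minutes of labelling and minutes since the medium was changed or handled moved together, so that their parts cannot be told apart.

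4-Thiouracil can be built into RNA in place of uracil, and is used to tag RNA made while it is present. How much of it these HEK293 cells built into RNA was not measured here. A short pulse tags mainly RNA still being transcribed, and a longer pulse also tags RNA that has been spliced, exported and joined to the stable pool. Immediate-early genes such as FOS and EGR1 are short genes that growth factors, serum and stress switch on within minutes, without new protein synthesis, through factors already in the cell.

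The 16 libraries held 188686 to 381471 counts each, and the cultures 776871 and 1298475 counts at 5 min and 1396056 and 1343632 at 30 min. Culture 1 at 5 min was therefore the shallowest of the 4, and low counts there carry the largest counting error. Libraries from the same cDNA (8 pairs) varied less than counting alone would give (chi-square 0.327 to 0.594 per degree of freedom), and the 16 pairs from different cDNA of a culture gave 1.14 to 1.57. Log2 levels of the 2 cultures correlated across genes at 0.936 at 5 min and 0.956 at 30 min, and between the times at 0.887 to 0.917, genes not being independent replicates. Of the marker lists, none of the leukocyte, erythroid, fibroblast and endothelial genes was abundant enough to be tested and each list summed to between 0 and 5.15 CPM (counts scaled to a common library total) in every culture at 5, 15 and 30 min. Of the hepatocyte list 1 gene was tested, and the list summed to between 2.57 and 17.9 CPM. A list of genes taken as carried by HEK293, 5 of them tested, summed to between 554 and 723 CPM at 5, 15 and 30 min. Its most abundant tested members were CDH2, VIM and KRT8.

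Between 5 and 30 min, immediate-early, actin and histone genes were among those that rose, many of them several-fold. Nuclear genes of the respiratory chain, ribosomal proteins and long genes were among those that fell, mostly by less than 2-fold. Of 10439 genes tested, 614 rose (5.88%) and 681 fell (6.52%) at an adjusted p under 0.05 by edgeR's quasi-likelihood F test with Benjamini-Hochberg adjustment, 12.4% in either direction. Of these, 509 rose by over 2-fold (4.88%) and 102 fell by over 2-fold (0.977%). The values of the cultures did not overlap in 1294 of the 1295 genes called, against 56.5% of all genes tested, and the gene that overlapped is not described below. Over all genes tested the log2 fold change had a median of -0.03. The split of higher and lower calls depended on the scaling, since it was 551 to 1122 with the RLE factors of edgeR (median -0.14), 767 to 311 with total counts alone (median 0.11) and 367 to 779 in DESeq2 (median -0.14). Each direction below is therefore relative to the other genes of the same culture, and fewer cells and less RNA per cell cannot be told apart in bulk RNA. Of 145 genes named by rule that passed the test, 59 passed it in all 19 alternative analyses, 81 missed it in at least 1 fit that left out a culture, and 0 reversed. Leaving out culture 1 or 2 at 5 min gave 400 and 403 genes higher, and 350 and 304 lower. Leaving out culture 1 or 2 at 30 min gave 305 and 349 higher, and 193 and 165 lower.

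**Figure D1:**
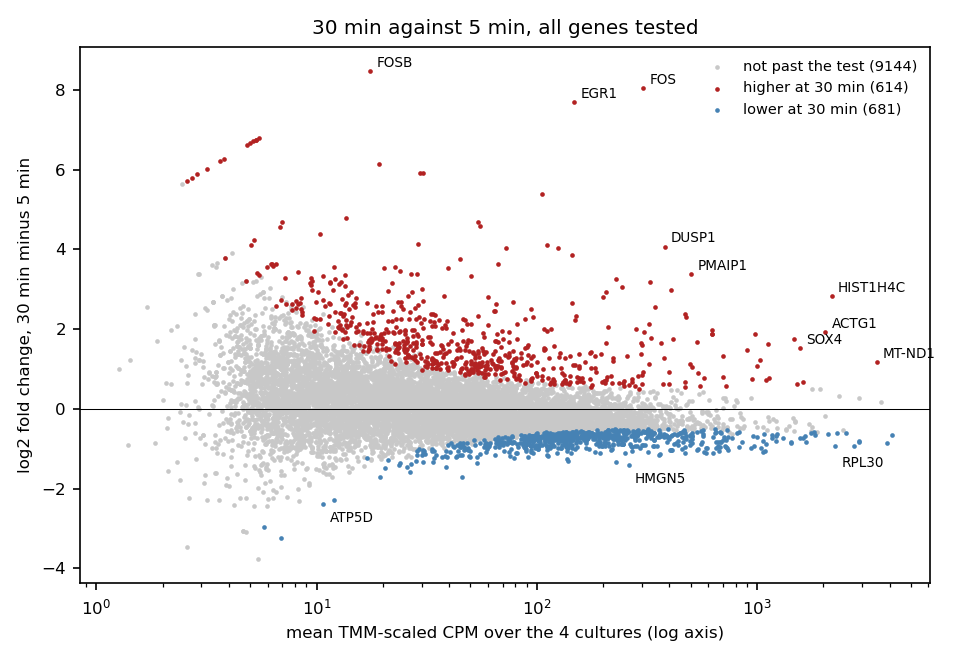
Log2 fold change from 5 to 30 min against the mean level over the 4 cultures (TMM-scaled CPM, that is CPM after edgeR scaling, log axis), 1 point per gene tested. Red points (614) were higher and blue points (681) lower at an adjusted p under 0.05, and grey points (9144) did not pass. The largest increases reach over 8 on the log2 scale, while most genes called lower lie between 0 and -1.

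AP-1, the dimeric factor of FOS and JUN family proteins, is the textbook immediate-early product. Of 10 AP-1 and MAF genes tested, 6 rose and 0 fell, with a median log2 fold change of 3.09 against -0.03 over all genes (4 to 7 rose when 1 culture was left out, fewest without culture 2 at 5 min). FOS stood at 0 and 3.53 CPM at 5 min, 150.0 and 179.8 at 15 min and 665 and 545 at 30 min. The groups lay far apart, and the log2 fold change was 8.04 (SE 0.37, adjusted p = 2.57e-17). Each SE, here and below, was worked back from the result of the F test and was not estimated directly. In genes with few counts at 5 min, such as FOS, CYR61 and CTGF, it may be smaller than counting error alone. FOSB had 0 counts in both 5 min cultures and 51.0 and 19.1 CPM at 30 min, at least 26.5-fold higher against a floor of 3 counts over both 5 min cultures. JUN was at 47.2 and 40.3 CPM at 5 min and 485 and 348 at 30 min, a log2 fold change of 3.27 (SE 0.22, adjusted p = 5.1e-13). ATF3, a stress-induced member of the wider family, was at 8.26 and 18.4 CPM at 5 min and 277 and 196 at 30 min (log2 fold change 4.04, adjusted p = 3.35e-12). The partners JUNB (log2 fold change 3.26) and JUND (log2 fold change 2.69) rose, and both missed the threshold without culture 2 at 5 min, without culture 1 at 30 min and in DESeq2. FOSB missed it in DESeq2. Medians given for a list, here and below, are of log2 fold changes, to be read against -0.03 over all genes tested. Counts of list members that rose or fell are to be read against 5.88% higher and 6.52% lower of all genes tested. Fits that left out a culture filtered genes anew, so the number of list members tested in them can differ from the number given. Here and below, any gene outside the naming rule was picked with its values in view.

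The promoters of 4 genes among the 15 largest increases are shown because they carry the 3 core and response elements that textbook immediate-early promoters are known for. Each is the 250 bases before the RefSeq start on GRCh38.p14, 5′ to 3′ on the gene's strand, while the deposited counts were made on hg19. FOS lies at chr14:75278578-75278827, plus strand, EGR1 at chr5:138465229-138465478, plus strand, DUSP1 at chr5:172771196-172771445, minus strand, and CTGF (CCN2 in RefSeq) at chr6:131951373-131951622, minus strand. Capitals mark the TATA motif TATAAA, the CRE motif TGACGTCA, which cyclic AMP response factors bind, and the CArG box, which serum response factor binds.
FOS: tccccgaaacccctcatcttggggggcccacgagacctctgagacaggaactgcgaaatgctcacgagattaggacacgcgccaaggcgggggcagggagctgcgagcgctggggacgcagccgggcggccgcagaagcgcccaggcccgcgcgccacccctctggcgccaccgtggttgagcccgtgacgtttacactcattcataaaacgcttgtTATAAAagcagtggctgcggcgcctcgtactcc
EGR1: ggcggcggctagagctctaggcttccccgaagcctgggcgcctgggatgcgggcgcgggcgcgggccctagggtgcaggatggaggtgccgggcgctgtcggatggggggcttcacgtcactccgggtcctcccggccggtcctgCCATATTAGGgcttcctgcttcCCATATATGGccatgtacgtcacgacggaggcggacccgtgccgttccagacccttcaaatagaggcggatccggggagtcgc
DUSP1: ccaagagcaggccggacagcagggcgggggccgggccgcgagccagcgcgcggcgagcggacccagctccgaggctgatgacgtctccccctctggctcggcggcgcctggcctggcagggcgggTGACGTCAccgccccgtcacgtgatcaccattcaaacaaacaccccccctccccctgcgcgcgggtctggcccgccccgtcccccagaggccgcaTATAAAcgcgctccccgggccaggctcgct
CTGF: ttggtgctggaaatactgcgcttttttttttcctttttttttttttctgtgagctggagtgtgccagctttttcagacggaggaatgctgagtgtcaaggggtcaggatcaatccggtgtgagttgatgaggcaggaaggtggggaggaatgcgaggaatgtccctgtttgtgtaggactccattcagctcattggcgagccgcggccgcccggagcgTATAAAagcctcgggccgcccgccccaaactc
In FOS the TATA motif began 33 bases before the start. EGR1 held a CArG box at 105 and another at 83 bases before the start. DUSP1 held a CRE motif at 125 and a TATA motif at 30 bases before it, and CTGF a TATA motif at 32. Of the other largest increases with a promoter read this way, FOSB and KLHL21 held a TATA motif. PIM1, NR4A3, NR4A1, SIK1, HAND1, IER2 and ATF3 held none of the 3 motifs there, ATF3 holding TATAAA only at another listed start.

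The same letters were searched on both strands in the 250 bases before any listed start of 8307 of the 10439 tested genes, the motifs being free to overlap. TATAAA stood in 15.6% of 474 genes called higher, in 29.1% of 55 genes called higher by over 8-fold, in 7.23% of 567 genes called lower and in 7.86% of all genes tested. The CArG box stood in 3.80% of the genes called higher, 7.27% of those over 8-fold, 0.882% of those called lower and 1.55% of all tested. The CRE motif was in 4.64% of genes called higher and 4.03% of all tested, and the AP-1 motif TGANTCA in 4.01% and 5.53%. Over all 27305 RefSeq genes with a promoter the shares were 13.0% for TATAAA, 1.44% for the CArG box, 2.03% for the CRE motif and 8.06% for the AP-1 motif. These are counts of letters in a window of fixed length, and say nothing of whether a factor was bound.

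The EGR zinc finger factors, the NR4A orphan nuclear receptors and the IER genes are the other classical immediate-early families. All 8 of the 8 tested rose, with a median log2 fold change of 5.30 (4.61 to 6.36 when 1 culture was left out). The median was 4.69 with EGR2, at 0 counts in both 5 min cultures, set to its bound. EGR1 was at 1.18 and 1.41 CPM at 5 min, 103 and 89.6 at 15 min and 359.7 and 231 at 30 min. That is 3 counts against 975, a ratio of 223 with an exact 95% counting interval of 76.0 to 1082. Such intervals take every count as independent, which libraries of the same cDNA are not, so here and below they may be too narrow. NR4A1 stood 67.5-fold higher at 30 min (18.4 to 561) and NR4A3 66.1-fold (18.1 to 549.8), both from 2 counts at 5 min. NR4A2 rose from 2.36 and 4.95 CPM at 5 min to 115 and 93.4 at 30 min (log2 fold change 4.69, SE 0.45, adjusted p = 2e-09). IER2, an early nuclear regulator, went from 17.7 and 8.48 CPM at 5 min to 261 and 159 at 30 min (log2 fold change 4.10, adjusted p = 5.31e-11), and IER5 (log2 fold change 2.51) rose as well. EGR2 was at 0 in both 5 min cultures and at least 7.99-fold higher at 30 min, and EGR3 30.8-fold higher (5.26 to 1244). These last, EGR2 and EGR3, missed the threshold without either 5 min culture, without culture 1 at 30 min and in DESeq2. The 5 and 30 min cultures did not overlap in any of these genes, which holds for 1294 of the 1295 genes called and 56.5% of all tested.

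MAP kinase feedback genes limit the signal that drives immediate-early transcription. Of 12 tested, 6 rose and 1 fell, with a median of 1.27. DUSP1, a phosphatase of ERK, JNK and p38 kinases, was at 40.1 and 44.5 CPM at 5 min, 219.8 and 158 at 15 min and 816 and 621 at 30 min (log2 fold change 4.07, SE 0.22, adjusted p = 2.57e-15). The cytoplasmic brakes SPRY1 (log2 fold change 1.22) and SPRY2 (log2 fold change 2.80) and the phosphatase DUSP5 (log2 fold change 3.38) also rose. DUSP16, a phosphatase of JNK, went the other way, from 139 and 169 CPM at 5 min to 95.5 and 66.4 at 30 min (log2 fold change -0.94, adjusted p = 0.0041), and missed the threshold without culture 2 at either time.

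Regulators of mRNA decay rose with them. Of 6 TTP, BTG and TOB family genes tested, 5 rose and 0 fell, with a median of 1.52 (3 to 5 when 1 culture was left out, fewest without culture 1 at 30 min). BTG2, an antiproliferative adaptor of the CCR4-NOT deadenylase, was at 7.08 and 9.18 CPM at 5 min and 156 and 119 CPM at 30 min (log2 fold change 4.02, SE 0.39, adjusted p = 2e-09). Of the same family, TOB1 (log2 fold change 2.14) and BTG1 (log2 fold change 1.58) rose. BTG3, the most abundant member, was at 173 and 168 CPM at 5 min and 169 and 177 at 30 min (log2 fold change 0.02, adjusted p = 0.971).

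Among growth factors and inflammatory feedback genes, 10 of 14 tested rose and 0 fell, with a median of 2.00 (4 to 13 when 1 culture was left out, fewest without culture 1 at 30 min). RGS2, which shortens signalling by G proteins, was at 10.6 and 9.18 CPM at 5 min and 122 and 124 at 30 min (log2 fold change 3.64, SE 0.35, adjusted p = 1.65e-09). TRIB1, a pseudokinase, was at 49.6 and 50.2 CPM at 5 min and 253 and 248 at 30 min (log2 fold change 2.33, adjusted p = 7.88e-10). The hormone gene ADM (log2 fold change 3.55) and the kinase gene SGK1 (log2 fold change 3.75) rose as well. SIK1, a kinase induced by cyclic AMP, was 29.8-fold higher (8.01 to 250.0, from 2 counts at 5 min) and missed the threshold without culture 1 at 30 min and in DESeq2.

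Actin genes and targets of serum response factor and of the YAP coactivator rose together. Of 16 tested, 11 rose and 0 fell, with a median of 1.48. CYR61 and CTGF, secreted matricellular proteins and standard YAP readouts, rose several-fold. CYR61 was at 3.54 and 5.65 CPM at 5 min and 228 and 187 at 30 min (log2 fold change 5.39, SE 0.34, adjusted p = 5.67e-14), and CTGF at 0 and 7.07 CPM at 5 min and 129 and 84.8 at 30 min (log2 fold change 4.60, SE 0.49, adjusted p = 1.55e-08). The cytoplasmic actin genes were abundant: ACTG1 went from 903 and 792 CPM at 5 min to 3493 and 2986 at 30 min (log2 fold change 1.94, adjusted p = 1.2e-08) and ACTB from 440.2 and 398 CPM at 5 min to 1691 and 1405 at 30 min (log2 fold change 1.89, adjusted p = 8.52e-09). At 15 min ACTG1 was at 1143 and 1563 CPM and ACTB at 502 and 669 CPM, and the larger step of both came after 15 min. ACTB and ACTG1 are near-identical in coding sequence and have many pseudogenes, and how shared reads were assigned was not given in the sources used here. VCL, the vinculin gene, was at 157 and 228 CPM at 5 min and 292 and 274 at 30 min (log2 fold change 0.54, adjusted p = 0.0545).

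The ID and HES genes, which encode inhibitors of helix-loop-helix factors and respond to BMP and Notch signals, moved in the same direction. Of 12 tested 8 rose and 0 fell, with a median of 1.49. ID3 was at 106 and 77.7 CPM at 5 min and 762 and 674 at 30 min (log2 fold change 2.99, SE 0.19, adjusted p = 1.16e-13). ID2 was at 524 and 578 CPM at 5 min and 1515 and 1882 at 30 min (log2 fold change 1.62, adjusted p = 6.94e-08), and HES1 at 307 and 234 CPM at 5 min and 1132 and 834 at 30 min (log2 fold change 1.87, adjusted p = 1.34e-08). Of 10 KLF factors 3 rose (30%, against 5.88% of all genes tested) and 0 fell. Those that rose were KLF10 (log2 fold change 2.03), KLF6 (log2 fold change 1.75) and KLF11 (log2 fold change 1.97). The last, KLF11, missed the threshold without culture 1 at 5 min. Among the 3 most abundant members KLF12 (log2 fold change -0.46, adjusted p = 0.0879) and KLF3 (log2 fold change -0.20, adjusted p = 0.767) did not pass.

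MYC, the growth-promoting factor, was at 48.4 and 54.4 CPM at 5 min and 478 and 392 CPM at 30 min (log2 fold change 3.07, SE 0.22, adjusted p = 1.03e-12). Its network list with the PIM kinases gave 3 of 11 higher and 1 lower, with a median of 0.98. The gene lower was the MYC antagonist MXI1 (log2 fold change -0.78), a call lost in 15 alternatives. PIM1, a survival kinase, had 1 count at 5 min and 125 at 30 min, a ratio of 85.6 with a counting interval of 15.1 to 3409. The MYC partners MAX (log2 fold change -0.44, adjusted p = 0.259) and MGA (log2 fold change -0.23, adjusted p = 0.549) did not pass.

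Of 18 p53 targets 3 rose and 0 fell, with a median of 0.46 (3 to 6 higher when 1 culture was left out). The share that rose was 16.7%, against 5.88% of all genes tested. PMAIP1, which encodes the pro-apoptotic BH3-only protein NOXA, was at 83.8 and 91.8 CPM at 5 min, 429 and 399 at 15 min and 869.6 and 961 at 30 min (log2 fold change 3.37, SE 0.20, adjusted p = 1.34e-14). The other genes of the list that rose were BTG2 (log2 fold change 4.02) and GADD45B (log2 fold change 3.38). MDM2, the ubiquitin ligase that p53 induces, was at 109 and 134 CPM at 5 min and 112 and 99.6 at 30 min (log2 fold change -0.21, adjusted p = 0.602), and CCNG1 at 118 and 107 CPM at 5 min and 123 and 157 at 30 min (log2 fold change 0.32, adjusted p = 0.315). Of 12 genes of the BCL2 family 2 rose, PMAIP1 and the short-lived survival gene MCL1 (log2 fold change 2.30), and 0 fell.

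**Figure D2:**
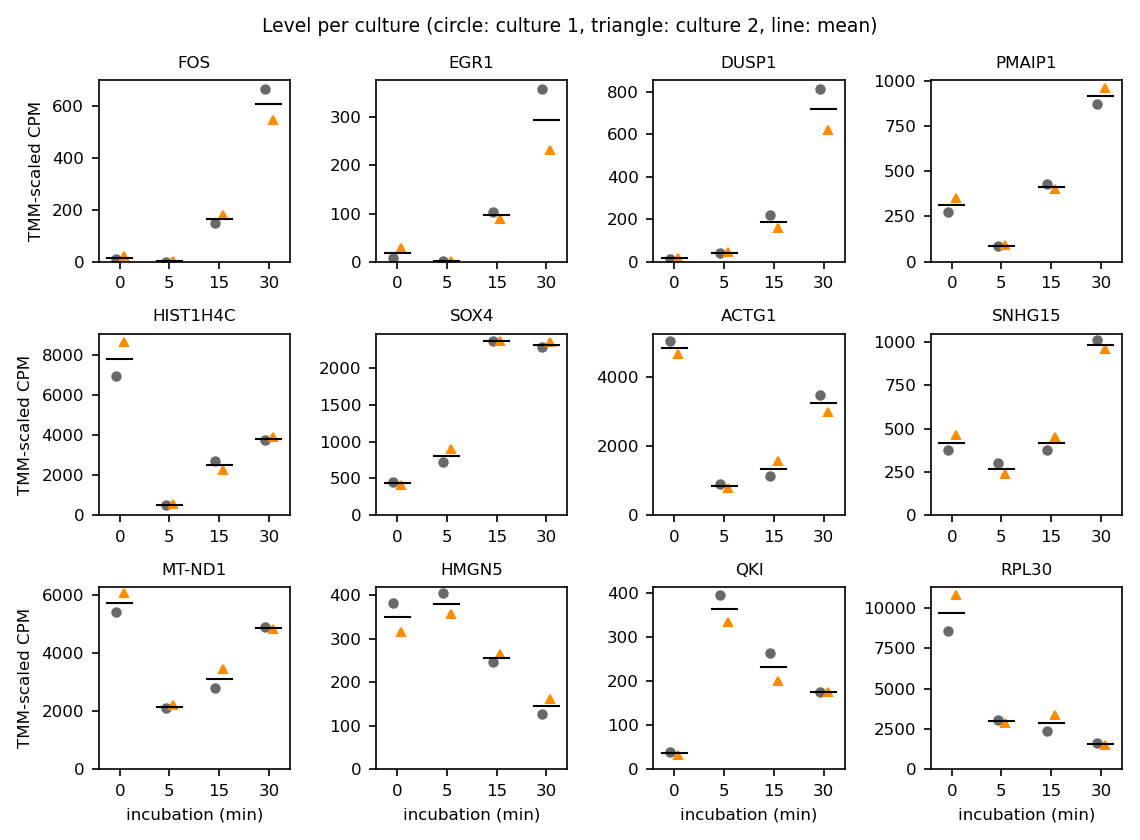
TMM-scaled CPM (vertical axes) of 12 genes at each incubation time in min (horizontal axis), 1 point per culture with a bar at the mean. From 5 min on, FOS, EGR1, DUSP1 and PMAIP1 climbed at both steps, SOX4 and HIST1H4C mainly by 15 min, ACTG1 mainly after 15 min, and HMGN5 and QKI declined. At 0 min HIST1H4C and ACTG1 stood above their 30 min level and QKI below it.

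The unfolded protein response and the integrated stress response slow translation and raise chaperones when proteins misfold or amino acids run short, and genes of both rose in part. Of 25 tested 8 rose and 0 fell, with a median of 0.99. ATF4, the transcription factor of the integrated stress response, was at 114 and 126 CPM at 5 min and 545 and 511 at 30 min (log2 fold change 2.12, SE 0.19, adjusted p = 1.93e-10). Its target DDIT3 (log2 fold change 2.13) rose, as did DNAJB9 (log2 fold change 3.54), a chaperone of the endoplasmic reticulum. HSPA5, the BiP chaperone, was at 148 and 141 CPM at 5 min and 432 and 472 at 30 min (log2 fold change 1.65, adjusted p = 4.93e-08). HSP90B1, the other abundant chaperone of that compartment on the list, was at 205 and 220.4 CPM at 5 min and 198 and 242 at 30 min (log2 fold change 0.04, adjusted p = 0.927).

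Heat shock chaperones moved both ways, 4 of 21 higher and 4 lower, with a median of -0.01 that became 0.14 with total counts. Each share was 19.0%, against 5.88% higher and 6.52% lower of all genes tested. HSPA8, the constitutive cytosolic Hsp70, was at 512 and 439 CPM at 5 min and 1310.4 and 1354 at 30 min (log2 fold change 1.49, SE 0.20, adjusted p = 1.53e-06). The heat-inducible HSPA1A (log2 fold change 1.28) and HSPA1B (log2 fold change 1.41) rose too, a near-identical pair whose counts are uncertain as a split, HSPA1B missing the threshold without culture 2 at 5 min and without culture 1 at 30 min. HSPE1, the mitochondrial chaperonin subunit, fell from 682 and 605 CPM at 5 min to 342 and 256 at 30 min (log2 fold change -1.11, adjusted p = 0.000344). The abundant HSP90 genes HSP90AA1 (log2 fold change -0.22, adjusted p = 0.505) and HSP90AB1 (log2 fold change 0.17, adjusted p = 0.635) did not pass. Leaving out 1 culture gave 2 to 4 genes higher, fewest without culture 2 at 5 min, and 1 to 5 lower, fewest without culture 2 at 15 min.

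Some RNA processing genes with known self-regulating transcripts rose. Of 11 SR splicing factors 4 rose and 0 fell, with a median of 0.40 (3 to 5 rose when 1 culture was left out, and the median was 0.16 without culture 2 at 5 min). The share of SR splicing factors that rose was 36.4%, against 5.88% of all genes tested. SRSF7 was at 760.0 and 539 CPM at 5 min and 1298 and 1424 at 30 min (log2 fold change 1.07, SE 0.19, adjusted p = 0.000207), with SRSF6 (log2 fold change 1.49) and SRSF2 (log2 fold change 1.33) beside it. Of 8 kinases of SR proteins and L-type cyclins 2 rose and 1 fell, with a median of 0.38. The gene that fell was the SR protein kinase SRPK2 (log2 fold change -0.74), a call lost in 7 alternatives. CLK1, a kinase that phosphorylates SR proteins, was at 35.4 and 34.6 CPM at 5 min and 109 and 97.7 at 30 min (log2 fold change 1.56, adjusted p = 7.41e-05), and the L-type cyclin gene CCNL1 at 100.3 and 89.7 CPM at 5 min and 214 and 192 at 30 min (log2 fold change 1.11, adjusted p = 0.000227). TRA2B, another splicing activator, was at 348 and 334 CPM at 5 min and 452 and 489 at 30 min (log2 fold change 0.46, adjusted p = 0.0639).

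Host genes of small nucleolar RNAs, whose spliced transcripts are usually short-lived, rose late. Of 7 tested 6 rose and 0 fell, with a median of 1.15 (2 to 6 when 1 culture was left out, fewest without culture 2 at 5 min). SNHG15 was at 299.8 and 236 CPM at 5 min, 378 and 451 at 15 min and 1007 and 955 at 30 min (log2 fold change 1.88, SE 0.19, adjusted p = 3.85e-09). The list's median was 0.14 from 5 to 15 min and 1.16 from 15 to 30 min, steps that share the 15 min cultures. Of 7 nuclear noncoding RNAs 2 rose (28.6%, against 5.88% of all genes tested) at a median of 0.02. MALAT1, an abundant RNA of nuclear speckles, was at 2431 and 1899 CPM at 5 min and 1790.3 and 2024 at 30 min (log2 fold change -0.18, adjusted p = 0.6). NEAT1, the scaffold of paraspeckles, was at 228 and 252 CPM at 5 min and 337 and 345 at 30 min (log2 fold change 0.50, adjusted p = 0.0465), a call lost in 8 of 19 alternatives. Of these noncoding RNAs 0 rose without culture 2 at 5 min.

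P-TEFb, the kinase that releases paused RNA polymerase, is held by a noncoding RNA whose cap MEPCE adds. Of 20 genes of P-TEFb, its inhibitors and elongation factors 2 rose and 1 fell, and both counts were 0 without culture 2 at 5 min. The list's shares were 10% higher and 5% lower, close to the 5.88% and 6.52% of all genes tested. MEPCE was at 26.0 and 15.5 CPM at 5 min and 57.1 and 37.5 at 30 min (log2 fold change 1.24, SE 0.38, adjusted p = 0.0275) and AFF4, a scaffold of the super elongation complex, at 155 and 185 CPM at 5 min and 96.1 and 95.9 at 30 min (log2 fold change -0.83, adjusted p = 0.00474). MEPCE lost its call in 5 alternatives, and AFF4 without culture 2 at 5 min or either culture at 30 min. The cyclin gene CCNT1 (log2 fold change 0.22, adjusted p = 0.457) and the kinase gene CDK12 (log2 fold change -0.29, adjusted p = 0.427) did not pass.

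Replication-dependent histone genes, which lack introns and whose mRNAs normally end in a stem-loop and not a poly(A) tail, rose in part, mostly by 15 min. Of 22 core histone genes tested 10 rose and 0 fell, with a median of 1.17 that was 1.98 from 5 to 15 min and -0.57 from 15 to 30 min. When 1 culture was left out 7 to 10 rose, fewest without culture 2 at 5 min, and the median reached 1.95 without culture 1 at 5 min. HIST1H4C was at 518 and 556 CPM at 5 min, 2727 and 2279.9 at 15 min and 3741 and 3912 at 30 min. The log2 fold change was 2.83 (SE 0.21, adjusted p = 3.35e-12), and the step after 15 min alone was 0.61 (adjusted p = 0.0627). HIST1H2AM was at 47.2 and 45.9 CPM at 5 min and 201 and 169.7 at 30 min (log2 fold change 1.99, adjusted p = 2.1e-08).

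Of 5 linker histone H1 genes 4 rose and 0 fell at a median of 2.00 (2 to 4 when 1 culture was left out, fewest without culture 2 at 5 min). The median was 2.73 from 5 to 15 min and 0.16 from 15 to 30 min. HIST1H1C was at 48.4 and 38.9 CPM at 5 min, 310.3 and 261 at 15 min and 178 and 166 at 30 min (log2 fold change 2.00, SE 0.23, adjusted p = 5.94e-08), and fell by 0.73 on the log2 scale after 15 min (adjusted p = 0.0137). H3F3B, a replacement histone gene with introns and a poly(A) tail, was at 636 and 702 CPM at 5 min and 2169 and 2361 at 30 min (log2 fold change 1.76, adjusted p = 3.45e-08), while H3F3A (log2 fold change -0.54, adjusted p = 0.0585) and H2AFZ (log2 fold change -0.44, adjusted p = 0.143) did not pass. Histone genes of a class share long stretches of sequence, and how reads shared among them were assigned was not given in the sources used here.

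Of 29 Polycomb and histone methylation genes 5 rose (17.2%) and 2 fell (6.90%) at a median of -0.11, against 5.88% and 6.52% of all genes tested. When 1 culture was left out 2 to 6 rose and 0 to 2 fell. EZH2, the methyltransferase of a Polycomb repressive complex, was at 336 and 333 CPM at 5 min and 231 and 202 at 30 min (log2 fold change -0.63, adjusted p = 0.0151), a call lost in 7 alternatives. Of 6 SOX developmental factors 2 rose and 0 fell. SOX4, a single-exon gene, was at 719.9 and 894 CPM at 5 min, 2364 and 2363 at 15 min and 2282 and 2348 at 30 min (log2 fold change 1.52, SE 0.19, adjusted p = 2.92e-07). Both 15 min cultures were already above both 30 min cultures, the later step being -0.03 (adjusted p = 0.962). The cartilage factor gene SOX9 (log2 fold change 2.66) rose, missing the threshold without culture 2 at 5 min, and SOX6 (log2 fold change -0.27, adjusted p = 0.73) did not pass. Of 316 zinc finger genes named ZNF 27 rose (8.54%) and 3 fell (0.949%), against 5.88% and 6.52% of all genes. Their median was 0.33 (0.325 to 0.50 when 1 culture was left out). In the least abundant quintile of protein-coding genes 3.00% rose and 0.107% fell, at a median of 0.37. In the next quintile 6.75% rose and 0.32% fell, at a median of 0.18. The part of level in the ZNF shares was not tested.

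Respiratory chain complexes are built from subunits encoded in the nucleus and in mitochondrial DNA, and the 2 sets moved apart. Of 33 nuclear complex I genes 22 fell and 0 rose, with a median of -0.75. Of 35 nuclear genes of complexes III, IV and ATP synthase 22 fell and 1 rose, UQCRFS1 (a call lost without culture 2 at either time), with a median of -0.77. Of 11 mRNAs encoded in mitochondria 5 rose and 0 fell, with a median of 0.51. Summed over the list, nuclear complex I mRNAs were at 10338 and 10279 CPM at 5 min, 9701 and 11535 at 15 min and 6784 and 6339 at 30 min. The complex III, IV and ATP synthase mRNAs were at 21132 and 20498 CPM at 5 min and 14032 and 13023 at 30 min. The mitochondrially encoded mRNAs were at 17465 and 14555 CPM at 5 min, 18233 and 19270.5 at 15 min and 28631 and 25371 at 30 min. None of the 3 sums overlapped between 5 and 30 min, which also holds for 56.5% of single genes tested. The nuclear lists moved after 15 min, with medians of -0.03 and 0.02 for the first step and -0.72 and -0.79 for the second.

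Single subunits showed the same split. NDUFB1, an accessory subunit of complex I, was at 596 and 401 CPM at 5 min and 236 and 207 at 30 min (log2 fold change -1.16, SE 0.19, adjusted p = 8.1e-05). NDUFA4, counted in the complex I list under its NDUF symbol and not by its place in a complex, was at 812 and 896 CPM at 5 min and 489 and 468 at 30 min (log2 fold change -0.84, adjusted p = 0.00211). COX7A2, a cytochrome oxidase subunit, was at 1620.3 and 1160.1 CPM at 5 min and 752 and 655 at 30 min (log2 fold change -0.98, adjusted p = 0.000928). Both missed the threshold without culture 2 at 30 min. MT-ND1, a core subunit encoded in mitochondria, was at 2088 and 2206 CPM at 5 min and 4895 and 4810.5 at 30 min (log2 fold change 1.18, SE 0.20, adjusted p = 8.1e-05), and MT-CO1 at 657 and 586 CPM at 5 min and 1550.0 and 1357 at 30 min (log2 fold change 1.23, adjusted p = 2.12e-05). The other abundant members, MT-ND3 (log2 fold change 0.28, adjusted p = 0.419) and MT-ND4 (log2 fold change 0.32, adjusted p = 0.32), did not pass. Without 1 culture, 8 to 23 complex I genes fell (fewest without culture 2 at 30 min), 6 to 24 of complexes III, IV and ATP synthase fell (likewise), and 2 to 7 mitochondrial mRNAs rose (fewest without culture 2 at 5 min).

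Cytosolic ribosomal protein genes, the most abundant list, fell in large number by small amounts. Of 85 tested 37 fell and 1 rose, with a median of -0.55, and their sum went from 114827 and 99843 CPM at 5 min to 80039.8 and 74379 at 30 min. The number that fell was 4 without culture 2 at 30 min and reached 48 in another fit that left out a culture. With total counts, 29 fell and 2 rose. RPS21 fell from 1568 and 1309.9 CPM at 5 min to 729 and 633 at 30 min (log2 fold change -1.08, SE 0.19, adjusted p = 0.000148). RPL30, of the large subunit, fell from 3039 and 2889 CPM at 5 min to 1639 and 1475 at 30 min (log2 fold change -0.93, adjusted p = 0.00227), a call lost without culture 2 at 30 min. RPL22L1, a paralog of RPL22 with known extraribosomal roles, was the exception, at 296 and 328 CPM at 5 min and 658 and 703 at 30 min (log2 fold change 1.12, SE 0.18, adjusted p = 4.47e-05). Ribosomal protein genes have many pseudogenes, and how shared reads were assigned was not given in the sources used here.

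Other lists of the translation machinery held fewer called genes. Of 12 eIF3 subunits 3 fell (25%), of 11 elongation and TOP-mRNA factors 2 (18.2%), and of 20 aminoacyl-tRNA synthetases 3 (15%), against 6.52% of all genes tested. In each of the 3 lists 0 rose, and the medians were -0.21, -0.30 and -0.11. Of the most abundant quintile of protein-coding genes 23.2% fell, at a median of -0.31. The lists were not matched to other genes for level, and the part of level in their shares was not tested. Each of the 3 counts of genes that fell reached 0 in at least 1 fit that left out a culture. Of 71 mitochondrial ribosomal protein genes 12 fell and 6 rose at a median of -0.29 (4 to 16 lower and 3 to 8 higher when 1 culture was left out, fewest lower without culture 2 at 30 min). MRPL39 fell from 181 and 164 CPM at 5 min to 93.7 and 79.3 at 30 min (log2 fold change -0.99, SE 0.20, adjusted p = 0.000835).

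Proteasome genes, which encode the complex that degrades ubiquitinated proteins, fell in 11 of 31 members (35.5%) and rose in 0, at a median of -0.49. PSMD4, a ubiquitin receptor of the regulatory particle, was at 172 and 198 CPM at 5 min and 103 and 74.4 at 30 min (log2 fold change -1.06, SE 0.20, adjusted p = 0.0005). Without 1 culture 2 to 13 fell, fewest without culture 2 at 30 min. Of the TRiC chaperonin, which folds actin and tubulin, the abundant subunits CCT3 (log2 fold change -0.18, adjusted p = 0.567), CCT5 (log2 fold change -0.14, adjusted p = 0.695) and CCT8 (log2 fold change -0.32, adjusted p = 0.286) did not pass. Of 17 glycolysis enzymes 2 fell (11.8%, against 6.52% of all genes tested) at a median of -0.39, 0 with total counts. Of the most abundant quintile of protein-coding genes 23.2% fell, and the part of level in these shares was not tested. GAPDH was at 2040.5 and 1879 CPM at 5 min and 1547 and 1451 at 30 min (log2 fold change -0.39, adjusted p = 0.213).

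Cholesterol synthesis genes are set by the sterol-sensing SREBP factors, and 3 of 20 rose while 2 fell (0 fell without culture 1 at 30 min). The list's shares were 15% higher and 10% lower, against 5.88% and 6.52% of all genes tested. IDI1, isopentenyl diphosphate isomerase, was at 262 and 247 CPM at 5 min, 236 and 307 at 15 min and 883 and 751 at 30 min (log2 fold change 1.68, SE 0.18, adjusted p = 2.85e-08). The sterol sensor partner INSIG1 (log2 fold change 1.33) also rose. FDFT1, squalene synthase, fell from 254 and 286 CPM at 5 min to 141 and 161 at 30 min (log2 fold change -0.84, adjusted p = 0.0016), a call lost without culture 1 at 30 min. The amino acid transporter SLC38A2, an ATF4 target, was at 205 and 221 CPM at 5 min and 392 and 377 at 30 min (log2 fold change 0.85, adjusted p = 0.000885), among 7 of 146 genes named SLC that rose (4.79%, against 5.88% of all genes tested) and 1 that fell. When 1 culture was left out 4 to 10 rose and 0 to 3 fell, fewest higher without culture 1 at 30 min.

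**Figure D3:**
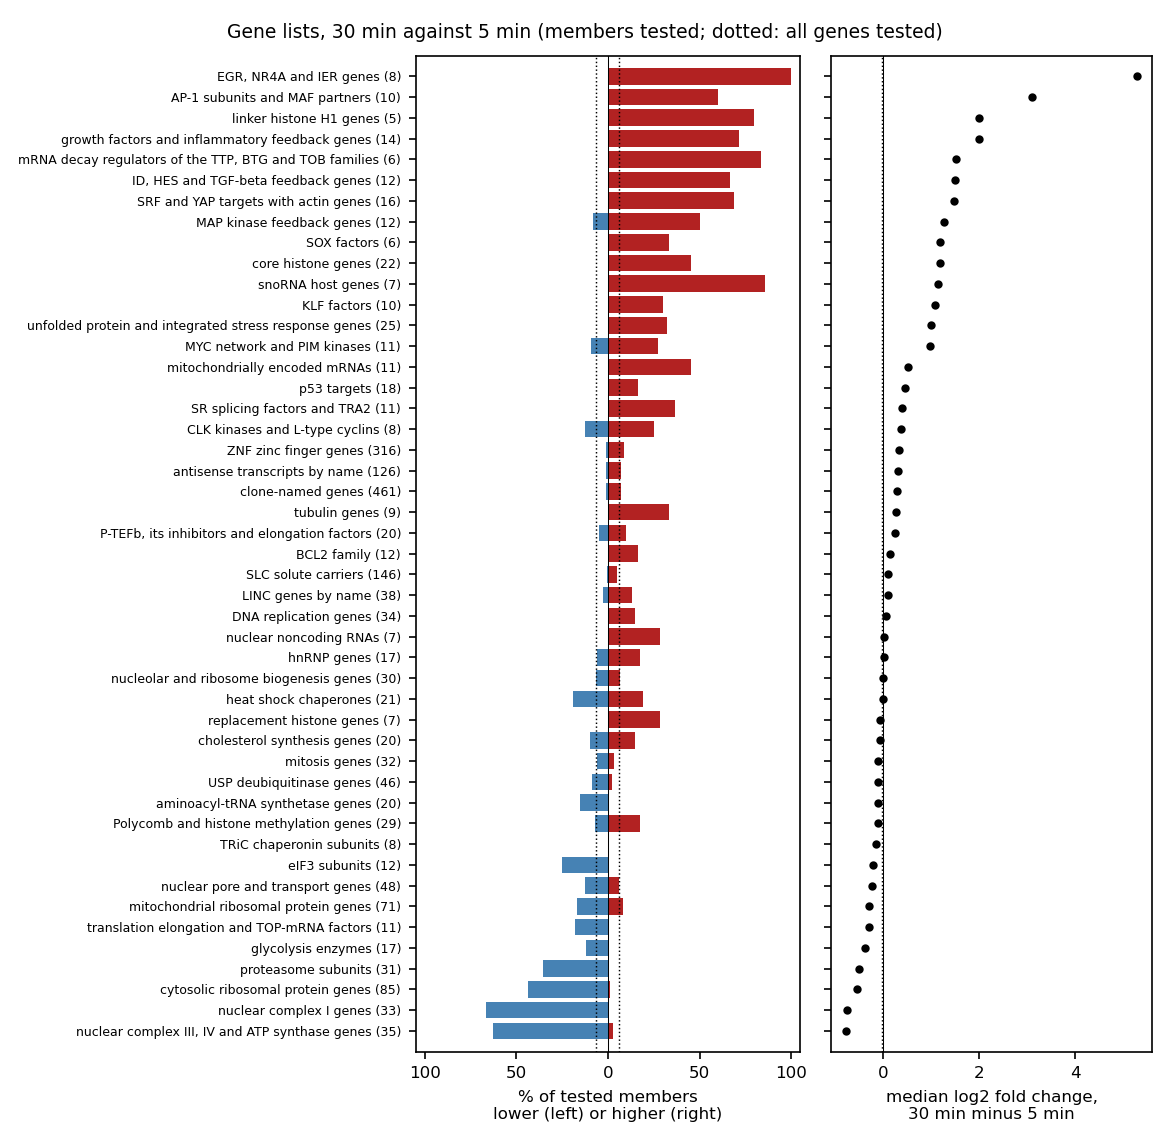
Share of the tested members of each gene list (number in brackets) that were higher (red, to the right) or lower (blue, to the left) at 30 than at 5 min, in percent, with the median log2 fold change in the right panel. Dotted lines give the share and the median over all genes tested. Immediate-early lists stand at the top and nuclear respiratory chain and ribosomal protein lists at the bottom.

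Of 32 mitosis genes 1 rose (3.12%) and 2 fell (6.25%) at a median of -0.10, against 5.88% and 6.52% of all genes tested (0 to 3 fell when 1 culture was left out, fewest without culture 2 at 5 min). Of 34 replication genes 5 rose (14.7%) and 0 fell at a median of 0.05. CKS2, a small subunit of cyclin-dependent kinases, was at 379 and 419.7 CPM at 5 min and 982 and 1016 at 30 min (log2 fold change 1.32, SE 0.18, adjusted p = 3.29e-06). The topoisomerase gene TOP2A (log2 fold change 0.06, adjusted p = 0.885) and the spindle gene PRC1 (log2 fold change 0.27, adjusted p = 0.327) did not pass. PCNA, the replication clamp, was at 259.6 and 217 CPM at 5 min and 376 and 350.4 at 30 min (log2 fold change 0.62, adjusted p = 0.0174), and without culture 1 at 30 min 0 replication genes passed. Of 9 tubulin genes 3 rose and 0 fell, 0 without culture 2 at 5 min. KPNA2, an importin alpha, was at 312 and 347 CPM at 5 min and 645 and 729.7 at 30 min (log2 fold change 1.06, adjusted p = 0.000105), among 48 nuclear pore and transport genes of which 3 rose and 6 fell (2 to 4 and 0 to 9 when 1 culture was left out).

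Of the 15 largest increases, FOSB, FOS, EGR1, PIM1, NR4A3, NR4A1, CYR61, SIK1, NR4A2, CTGF, IER2, DUSP1 and ATF3 have been given above. HAND1, a developmental helix-loop-helix factor, was 22.6-fold higher (6.02 to 191, from 2 counts at 5 min) and missed the threshold in DESeq2. KLHL21, an adaptor of a CUL3 ubiquitin ligase, was at 1.18 and 4.24 CPM at 5 min and 61.9 and 48.0 at 30 min (log2 fold change 4.13, SE 0.58, adjusted p = 3.83e-06).

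The 15 largest decreases were smaller than the 15 largest increases. HMGN5, a nucleosome-binding protein, was at 404 and 356 CPM at 5 min, 247 and 265 at 15 min and 127 and 161 at 30 min, a log2 fold change of -1.40 (SE 0.18, adjusted p = 1.21e-06). STRA13, a centromere protein of the Fanconi pathway under this symbol, fell from 316 and 339 CPM at 5 min to 137 and 122 at 30 min (log2 fold change -1.34, SE 0.20, adjusted p = 1e-05). ATP5D, the delta subunit of ATP synthase, had the largest log2 fold change at -2.38, from 23.6 and 12.7 CPM at 5 min to 4.80 and 1.84 at 30 min (adjusted p = 0.0306), and lost its call in 6 alternatives, among them DESeq2 and the fits without culture 1 at 5 min, culture 2 at 15 min or either culture at 30 min. PSPC1, a paraspeckle protein, fell by 1.70 on the log2 scale (adjusted p = 0.000951) and lost its call with the second cDNA alone. The others were MEGF11 (log2 fold change -2.28), GTSF1 (log2 fold change -1.70), KRTCAP2 (log2 fold change -1.59), ME1 (log2 fold change -1.49), SNRNP25 (log2 fold change -1.47), TSGA10 (log2 fold change -1.47), RP4-714D9.2 (log2 fold change -1.40), RP1-78O14.1 (log2 fold change -1.37), CA5B (log2 fold change -1.36), RAB23 (log2 fold change -1.35) and YIF1A (log2 fold change -1.32). Each of these 11 lost its call in at least 2 alternatives, ME1 in 10 and CA5B and RP4-714D9.2 in 13, and each of them in at least 1 fit that left out a culture.

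The 15 min cultures mostly lay between. The mean at 15 min was between those at 5 and 30 min for 552 of the 614 genes that rose (89.9%) and 521 of the 681 that fell (76.5%), against 44.5% of all genes tested, a share the choice of called genes raises. The 2 steps share the 15 min cultures. From 5 to 15 min 108 genes were called higher (1.03%) and 54 lower (0.517%), and from 15 to 30 min 236 higher (2.26%) and 290 lower (2.78%). The median step of the genes that rose was 0.72 and then 0.83, and of those that fell -0.31 and then -0.47. Without culture 1 at 15 min the share in between fell to 52.7% for the genes that fell, and without culture 2 at 15 min it was 86.8%.

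The level at 0 min divided the genes that fell into a pair of unlike sets, as a description with no test. In 287 of the 681 the 0 min mean was below the 30 min mean, and in 346 it was above the 5 min mean, so that in each gene the choice of sets fixes the order of the 0, 5 and 30 min means. The first set held long genes, with a median span of 140 kb and 18 exons, at median levels of 37.0, 195, 136 and 118 CPM at 0, 5, 15 and 30 min. QKI, an RNA-binding protein gene, was at 38.7 and 32.4 CPM at 0 min, 394 and 334 at 5 min, 262 and 199.7 at 15 min and 174 and 176 at 30 min (log2 fold change -1.05, adjusted p = 0.000122). MED13L, a Mediator kinase module gene, was at 35.1 and 18.5 CPM at 0 min, 316 and 271 at 5 min and 137 and 153 at 30 min (log2 fold change -1.01, adjusted p = 0.000419). The long set fell mainly in the first step, with medians of -0.53 and -0.19, and 40 and 5 of its genes called lower in the 2 steps.

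The second set held short genes, with a median span of 12.6 kb and 6 exons, at median levels of 572, 223, 205 and 133 CPM at 0, 5, 15 and 30 min. Culture 2 at 15 min, at a median of 225 CPM, was no lower than the 5 min cultures, at 223 and 219, and culture 1 at 15 min was at 186. PSME2, a proteasome activator subunit, was at 494 and 569.9 CPM at 0 min, 176 and 211 at 5 min, 158 and 189 at 15 min and 87.1 and 74.4 at 30 min (log2 fold change -1.27, adjusted p = 2.2e-05). ATP5I, an ATP synthase subunit, was at 1577 and 1668 CPM at 0 min, 815 and 795 at 5 min and 398 and 344 at 30 min (log2 fold change -1.12, adjusted p = 0.000105). This second set fell mainly in the second step, with medians of -0.07 and -0.73, and 0 and 199 genes called lower. The division rests on the scaling of the 0 min cultures, whose TMM factors were 0.684 and 0.637 against 1.10 at 5 min and 1.21 and 1.23 at 30 min. With total counts the sets held 337 and 303 genes.

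Genes that rose also differed in their 0 min level. In 170 of the 614 it was above the 30 min mean, in 292 between and in 152 below the 5 min mean. ACTG1, of the first kind, was at 5041 and 4663 CPM at 0 min, and ACTB, H3F3B, HSPA5, HSPA8, HIST1H4C, ATF4 and IDI1 belonged with it. FOS, of the second kind, was at 8.46 and 23.2 CPM at 0 min, and EGR1, CYR61, MYC, JUN and ID3 also lay between. TSC22D3, a glucocorticoid-induced leucine zipper gene of the third kind, was at 127 and 161 CPM at 0 min, 160.5 and 145 at 5 min and 899.6 and 682 at 30 min (log2 fold change 2.38, adjusted p = 2.09e-11), as were DUSP1, ATF3, SOX4, KLF6 and TRIB1. Median levels were 132, 39.0, 54.9 and 86.5 CPM at 0, 5, 15 and 30 min in the first kind, 25.5, 12.2, 22.2 and 48.8 in the second and 13.6, 26.2, 41.6 and 71.0 in the third. With total counts the first kind held 62 genes and the third 267.

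**Figure D4:**
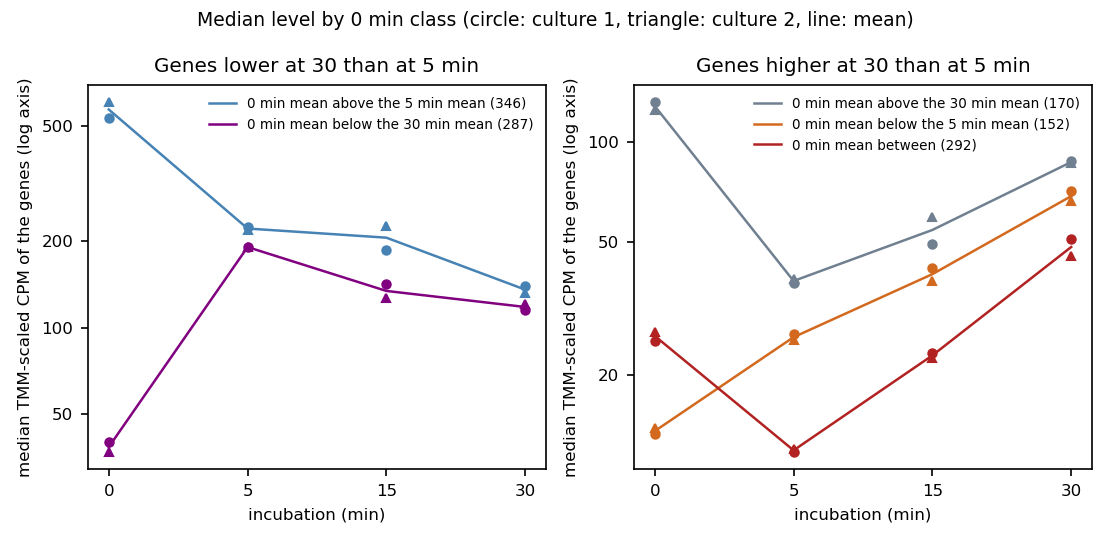
Median level (TMM-scaled CPM, log axis) over incubation time in min of genes that fell (left) and rose (right) from 5 to 30 min, split by the 0 min mean, with circles and triangles for culture 1 and 2 and lines for the mean. The order of the 0, 5 and 30 min means in each gene is fixed by how the sets were chosen. Of the genes that fell, those high at 0 min had 15 min medians of 186 and 225 against 223 and 219 at 5 min, and those low at 0 min 142 and 127 against 190.0 and 191.

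The log2 fold change also varied with gene length. Of 10439 genes tested 9529 (91.3%) were matched by symbol to the GENCODE 29 annotation, 9333 of them protein coding. In the shortest quintile by genomic span, with a median of 6694 bases, 322 of 1867 genes rose (17.2%) and 156 fell (8.36%), at a median log2 fold change of 0.27. In the longest quintile, with a median of 184606 bases, 16 of 1867 rose (0.857%) and 197 fell (10.6%), at a median of -0.26. The median moved from 0.15 to -0.02 and -0.19 over the quintiles between. Across genes Spearman's rho with the log2 fold change was -0.282 for span, -0.232 for exon number, -0.353 for mean level and -0.0126 for transcript length (9333 genes, which share libraries and are not independent). Without 1 culture 185 to 363 genes of the shortest quintile rose and 40 to 177 fell, and 24 to 266 of the longest fell. Each of these counts was lowest without a 30 min culture. The median was above 0 in the shortest quintile and below 0 in the longest in all 19 alternatives, but in 9 of them a higher share fell in the shortest quintile than in the longest. These were, by the number that fell, total counts (108 against 66), no filter (134 against 101), the fits without culture 2 at 5 min (95 against 60), culture 2 at 15 min (150 against 124), culture 1 at 30 min (79 against 24) or culture 2 at 30 min (40 against 38), and the first (53 against 30) or second (95 against 48) cDNA alone. With thinning to equal depth 8.73% against 8.69% fell.

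Genes with 1 exon stood out among the short ones. Of 141 tested 64 rose and 0 fell, at a median of 1.21, against 474 and 629 of 9192 genes with more exons. Histone genes made up 21 of them, and 15 of these rose. The single-exon genes also held the 11 mRNAs encoded in mitochondria, already given, of which 5 rose. Of the other 109 genes 44 rose at a median of 1.30. Of all 141, 34 to 72 rose when 1 culture was left out, fewest without culture 1 at 30 min. The mean level moved with the test itself, since highly expressed genes are called at smaller changes, and its part in these shares was not tested.

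**Figure D5:**
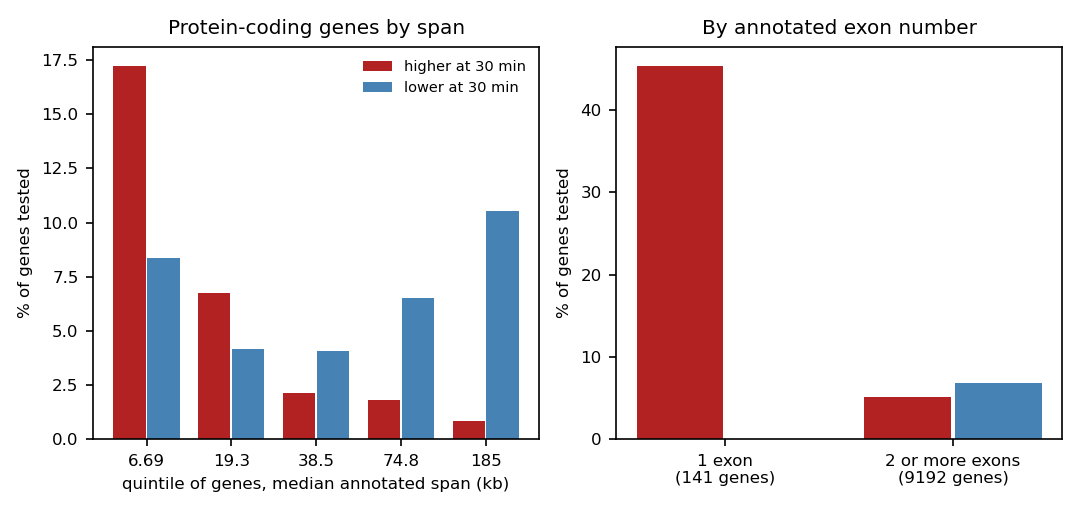
Genes higher and lower at 30 than at 5 min by gene structure, as percent of protein-coding genes in each quintile of genomic span (left) and with 1 or with 2 or more exons (right). The share that rose is highest among short and single-exon genes, and the share that fell is 8.36% in the shortest and 10.6% in the longest quintile, an order that turned in 9 of 19 alternatives.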

How the data were processed

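The data are the deposited whole-number counts of 32738 gene entries in 1 table, and 18789 entries were above 0 in at least 1 library. Reads were aligned with STAR to hg19, per the submitters' processing notes. Its version, the counting tool, the strand handling and any use of molecular identifiers were not given in the sources used here. Each column was tied to its sample by the barcode in header and title. For 4 libraries of culture 2 at 0 min the tagmentation numbers of header and labels differ, which changes no sum.

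Counts of the 4 libraries of a culture were summed, since libraries of 1 cDNA are not independent. The 8 cultures entered 1 fit in edgeR 4.0.16 (R 4.3.3) with TMM scaling, filterByExpr (10439 genes) and the quasi-likelihood F test, with Benjamini-Hochberg adjustment at 0.05 and 4 residual degrees of freedom, and the contrast was 30 minus 5 min. The biological coefficient of variation was 15.3%. The labels do not say how the cultures were separated, so p-values measure the spread between these cultures. Gene levels are TMM-scaled CPM, and summed list levels are CPM of the culture's total. Counting intervals cover counting error only and take every count as independent. Libraries of the same cDNA varied less than counting alone would give, so these intervals and the floor of 3 counts may understate the uncertainty. The fit was tested on simulated counts.

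The comparison and the gene lists were chosen with earlier results of these data known. The rule named, among genes called at a mean CPM of 10 or more whose cultures did not overlap, the 15 that rose most and the 15 that fell most, and of each list the 3 most abundant tested members and the called members with the largest increase and decrease. On 91 symbols with more than 1 entry, entries were kept apart. GENCODE 29 (GRCh38) was used by symbol for gene type, span and exon number, and RefSeq GRCh38.p14 for promoters, so coordinates are not those of hg19. Alternatives were RLE scaling, total counts, DESeq2 1.42.0, no filter, a mean CPM filter of 10, the 4 cultures alone, a replicate block, leaving out each culture, fewer libraries and thinning to equal depth. Results of some genes are not reported here.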

Additional observations from a re-analysis of the deposited data

How the results depend on the processing

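The counts of 614 genes higher and 681 lower stayed within 1.5 times under the mean CPM filter, the 4 cultures alone, the replicate block, 1 library per cDNA, thinning to equal depth and each fit without a 0 or 15 min culture. The other alternatives moved at least 1 count. Lower calls were 1122 with RLE, 311 with total counts and 414 with no filter. DESeq2 gave 367 higher. Leaving out 1 culture gave 305 to 770 higher and 165 to 857 lower. The first cDNA alone gave 268 higher and 165 lower, and the second 328 and 243; these fits hold fewer counts. Calls shared with the reported analysis were 1232 of 1673 with RLE, 925 of 1078 with total counts and 1013 of 1146 in DESeq2. The share with the 15 min mean in between, 89.9% of genes higher and 76.5% of genes lower, was 87.13% and 82.53% with RLE, 92.83% and 62.7% with total counts, 83.83% and 69.26% with the first cDNA alone, and 84.64% and 65.1% with the second. Only the share of genes lower moved with no filter (68.58%), the mean CPM filter (73.01%), 1 library per cDNA (69.51%) and thinning (70.59%). Over fits without 1 culture it was 84.36% to 90.07% and 52.72% to 86.78%. The cause of these moves was not tested. Same-numbered cultures at 5 and 30 min had deviations from their group means that correlated at 0.0809, the highest of the 6 pairs of times (-0.0324 to 0.0809). Little deviation was thus shared by number, which cannot exclude that same-numbered cultures were handled together. The replicate block gave 572 higher and 631 lower, with 1196 of 1203 calls shared, and 8 of 145 named genes lost their call. RLE lost 7 of these calls, total counts 25 and DESeq2 26. With 2 cultures a time and 776871 counts in the shallowest, changes of genes with few counts may have been missed.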

Other observations

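Noncoding and uncharacterised transcripts were also measured, beside 5.88% higher and 6.52% lower of all genes tested. In the least abundant quintile of protein-coding genes 3.00% rose and 0.107% fell, at a median of 0.37. In the next quintile 6.75% rose and 0.32% fell, at a median of 0.18. The lists below were not matched to other genes for level, and the part of level in their shares was not tested. Of 38 genes named LINC 5 rose (13.2%) and 1 fell (2.63%) at a median of 0.11 (1 to 5 higher when 1 culture was left out, fewest without culture 2 at 5 min), and LINC00116, which encodes a small mitochondrial protein, was at 106 and 99.6 CPM at 5 min and 207 and 211 at 30 min (log2 fold change 1.03, SE 0.19, adjusted p = 0.000273). Of 126 transcripts named as antisense 9 rose (7.14%) and 1 fell (0.794%) at a median of 0.30. Without culture 2 at 30 min 3 rose. Strand handling was not given in the sources used here, so reads of an antisense gene and its partner may not be told apart. Of 461 genes with clone names 33 rose (7.16%) and 4 fell (0.868%) at a median of 0.28 (18 to 46 higher when 1 culture was left out, fewest without culture 1 at 30 min). RP6-99M1.2 was at 190.0 and 165 CPM at 5 min and 553 and 564 at 30 min (log2 fold change 1.66, adjusted p = 1.26e-08), and RP11-304L19.5 at 144 and 85.5 CPM at 5 min and 474 and 419.9 at 30 min (log2 fold change 2.00, adjusted p = 8.28e-09). By GENCODE 29 type, 9 of 49 lincRNA genes rose and 2 fell, and 8 of 113 antisense genes rose and 0 fell by edgeR.

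Of 17 hnRNP genes 3 rose and 1 fell, none of them higher without culture 1 at 30 min. Of 30 nucleolar and ribosome biogenesis genes 2 rose and 2 fell, 6.67% each way against 5.88% and 6.52% of all genes tested (0 to 2 each when 1 culture was left out), and NPM1, nucleophosmin, was at 1577 and 1725 CPM at 5 min and 1266 and 1375 at 30 min (log2 fold change -0.32, adjusted p = 0.323). Of 46 deubiquitinase genes named USP 1 rose and 4 fell, 0 and 0 in at least 1 fit each that left out a culture.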
